A study of Cucurbita pepo with 12 samples.

Results

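The leaf library of zucchini plants (Cucurbita pepo, cultivar Costata Romanesco) grown with bulk CuO in the soil was compared with the leaf library of untreated plants. These are 2 of the 12 libraries of the series, taken by their labels and their column names in the deposited table. Of 27868 genes in the table, 20834 had a mean of at least 1 FPKM (fragments per kilobase of transcript, scaled to library size) over the 4 leaf libraries and were kept. Of the 7034 genes left out, 2965 were listed at 0 in every leaf library. The kept gene closest to the filter had a mean of exactly 1 FPKM, and the closest gene left out had a mean of 0.9985 FPKM. Bulk CuO, copper oxide of ordinary particle size, was mixed into the soil at 100 mg/kg. The other treated leaves came from plants given copper sulfate pentahydrate (CuSO4) at 320 mg/kg or CuO nanoparticles (NPs) at 100 mg/kg, and the fourth leaf library from plants given no copper. Each copper material supplied about 80 mg of copper per kg of soil. Seedlings germinated for 10 days were set 1 to a pot with 500 g of soil and grown for 60 days, to flowering. Root and pollen were sampled under the same 4 conditions. The labels give 1 library for each tissue and treatment, although the design text speaks of 3 biological replicates extracted for each treatment. Differences were therefore described by size, with no test, no error and no replicate check.

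Copper is a cofactor that plants need in small amounts. In leaves it sits in plastocyanin, which carries electrons between the photosystems of the chloroplast, and in copper/zinc superoxide dismutase, which removes superoxide. Excess copper is toxic, since the free ion takes part in reactions that form hydroxyl radicals, and plants hold it back by chelation, storage in vacuoles and control of transport from root to shoot. Copper sulfate dissolves readily in water, whereas CuO releases its copper slowly. The table gives gene IDs only, and none of them (0 of 27868) occurs in the RefSeq gene table of the assembly ASM280686v2. The genes below therefore carry no name, function or sequence, and each ranking prints no more than 2 IDs on either side. The tissue label could not be checked by known leaf markers either, and was checked by genes that separate leaf from root in other libraries.

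Library sums were 552230 to 563463 FPKM in leaf, and 19676 to 20957 genes stood at 1 FPKM or more. Read totals are not part of the table. The spacing of low values put the depth of the bulk CuO leaf library at 1.057 times that of untreated leaf, 1.053 times that of NP leaf and 0.976 times that of CuSO4 leaf. Of the genes kept, 106 were listed at 0 in bulk CuO leaf, 138 in CuSO4 leaf, 169 in NP leaf and 183 in untreated leaf.

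Bulk CuO leaf differed from untreated leaf by 2.3 or more on the log2(FPKM + 1) scale in 1686 genes, 8.09% of those kept. This is the threshold named in the design text, a 4.92-fold difference of FPKM + 1. Of these, 951 were higher under bulk CuO, which is 4.56% of all genes kept, and 735 were lower, which is 3.53%. With 0.1 in place of 1 in the logarithm there were 1665 higher and 1032 lower genes, and with 5 there were 271 higher and 339 lower, so both counts depend on that constant. Over all genes the difference had a median of 0.18 and an SD over genes of 1.27, and 5% of genes lay below -1.93 and 5% above 2.23. After the libraries were shifted to a common median, 759 genes were higher and 856 lower, so the balance of directions depends on scaling: 56.4% of these genes were higher as deposited and 47.0% after the shift. At a difference of 1 or more, 4442 genes (21.3%) were higher and 2833 (13.6%) lower. At 4 or more, 116 were higher and 106 lower, and at 6 or more, 11 were higher and 11 lower. The genes nearest the threshold stood at 2.3002 and 2.2999 on the higher side and at -2.3004 and -2.2971 on the lower side.

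The direction of the difference followed the level of the gene in NP leaf. Genes were binned by the NP leaf library, which is not in the comparison, so that the values being compared did not sort them. The median difference between bulk CuO and untreated leaf was 1.55 for 1400 genes below 1 FPKM in NP leaf and 0.52 for 5520 genes at 1 to 5 FPKM. It was 0.12 for 8341 genes at 5 to 20 FPKM, -0.29 for 4758 genes at 20 to 100 FPKM and -0.85 for 815 genes at 100 FPKM or more. Genes weak in NP leaf thus tended to be higher under bulk CuO and genes strong in NP leaf lower. NP leaf lay close to untreated leaf, with quartiles of their difference at -0.18 and 0.16, so the bins nearly sort by untreated level. Such sorting favours this order by itself, and how much of the order it makes was not tested. The median difference between CuSO4 and NP leaf ran the same way, from 1.15 in the lowest of these bins to -0.78 in the highest. NP leaf both makes the bins and is subtracted in that difference, which favours this order in advance. These medians are therefore no separate reading of it. The share of genes past the threshold on the higher side was 24.4% in the lowest bin and 1.96% in the highest. On the lower side it was 0.857% in the lowest bin and 19.5% in the highest. Part of this is set by the scale and the filter. A gene needs at least 3.92 FPKM in 1 library to differ by 2.3, a level that 4106 genes did not reach under bulk CuO and 5657 did not reach in untreated leaf. A gene below 1 FPKM in NP leaf was kept only if another leaf library was higher. In root, binned by its own NP library, the medians between bulk CuO and untreated ran only from 0.55 in the lowest bin to -0.29 in the highest, and from 0.03 to -0.15 in the 3 bins between. In pollen they were 0.80 in the lowest bin and between 0.12 and -0.06 in the other bins.

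**Figure D1:**
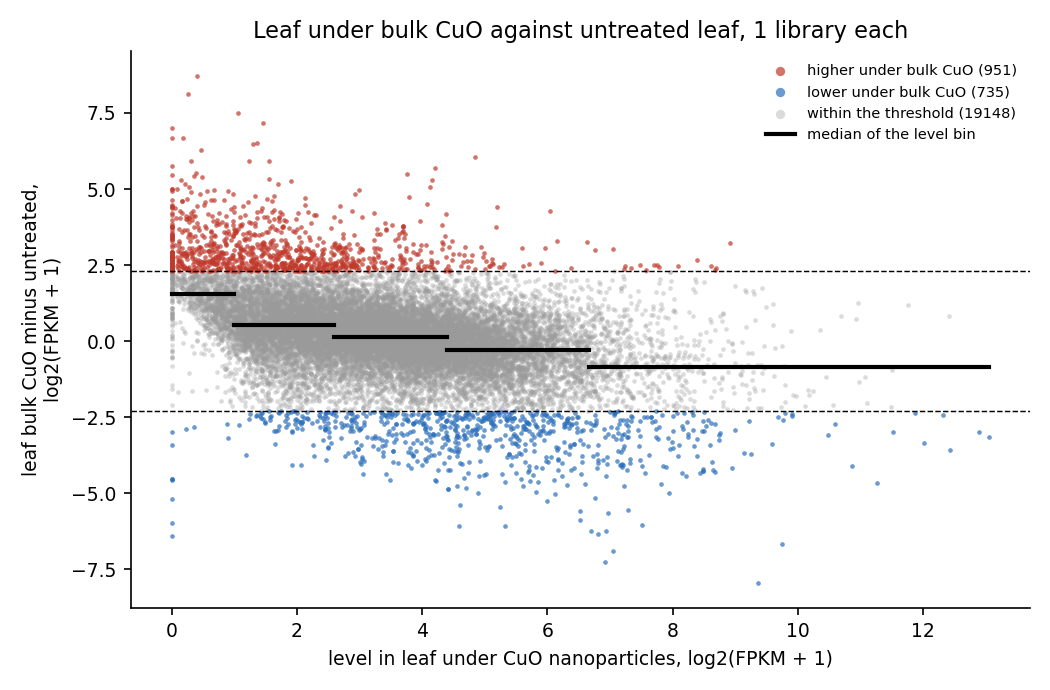
Each point is a gene, with its log2(FPKM + 1) level in leaf under CuO nanoparticles on the x axis and the difference between bulk CuO and untreated leaf on the y axis (1 library each). Dashed lines mark 2.3 and -2.3, and black bars the median of each level bin, which runs from 1.55 in the lowest bin to -0.85 in the highest.

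Summed over genes, the differences were large beside those of most other pairs set side by side. Genes higher under bulk CuO gained 212370 FPKM in sum, equal to 38.5% of the untreated sum, and genes lower under bulk CuO lost 202163 FPKM, equal to 36.7%. The same sums for CuSO4 leaf against NP leaf, a pair that shares no library with this one, were 32.4% gained and 32.4% lost. They were 9.57% and 8.02% for NP leaf against untreated leaf, 19.6% and 20.8% for bulk CuO root against untreated root, and 5.97% and 8.74% for bulk CuO pollen against untreated pollen. For bulk CuO leaf against CuSO4 leaf they were 19.4% and 19.1% of the CuSO4 sum. Of the gain, 312 genes held 50%, and of the loss, 255 genes. The 951 genes past the threshold on the higher side took 12.7% of the FPKM of bulk CuO leaf, against 1.45% in untreated leaf. The 735 genes on the lower side took 1.87% in bulk CuO leaf, against 17.1% in untreated leaf. These 2 lists were chosen by this very difference, so the shares only describe them. In the pair that did not choose them, the 951 genes took 9.33% in CuSO4 leaf, against 1.50% in NP leaf, and the 735 genes 6.22% and 17.6% in the same order. Among the 100 most abundant genes of NP leaf, 60 were lower by 1 or more under bulk CuO, against 13.6% of all genes kept. By the same cut 11 were higher, against 21.3%, and the median difference of the 100 genes was -1.37. These 100 genes summed to 76652 FPKM under bulk CuO, 103449 FPKM under CuSO4, 127251 FPKM under NPs and 112863 FPKM in untreated leaf. Their sum was lowest under bulk CuO and next lowest under CuSO4. The genes were chosen as the highest of NP leaf, which favours NP leaf and leaves like it. The 100 most abundant genes of each library itself held 21.4% of its FPKM sum in bulk CuO leaf and 24.9% in CuSO4 leaf. They held 22.7% in NP leaf and 20.7% in untreated leaf.

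On the log2(FPKM + 1) scale the largest difference upward was that of Cp4.1LG17g09870. It stood at 1449 FPKM under bulk CuO, 353 FPKM under CuSO4, 0.327 FPKM under NPs and 2.45 FPKM in untreated leaf, a log2 difference between bulk CuO and untreated leaf of 8.71. It was at 0.157 FPKM in CuSO4 root and listed at 0 in every other root and pollen library, so it was measured nearly only in leaf. Cp4.1LG11g04820 stood at 329 FPKM under bulk CuO, 120.0 FPKM under CuSO4, 0.191 FPKM under NPs and 0.193 FPKM in untreated leaf, a difference of 8.11. It was also measured in root, at 7.03 FPKM under bulk CuO, 1.64 FPKM under CuSO4, 4.90 FPKM under NPs and 0.888 FPKM in untreated root, and was listed at 0 in pollen. In root its 3 treated libraries were all above the untreated one, at levels far below those in bulk CuO leaf. Cp4.1LG03g10370 had the largest difference downward, -7.94, with 2.10 FPKM under bulk CuO, 36.1 FPKM under CuSO4, 654 FPKM under NPs and 757 FPKM in untreated leaf. Under bulk CuO its leaf level came within the range of its pollen libraries, which stood at 1.15 to 2.62 FPKM. Cp4.1LG04g08390 stood at 0.85 FPKM under bulk CuO, 4.11 FPKM under CuSO4, 120.1 FPKM under NPs and 282 FPKM in untreated leaf, a difference of -7.26. It was at 0.110 FPKM in untreated root and listed at 0 in the other 7 root and pollen libraries.

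Ranked by FPKM, the leading genes were among the most abundant transcripts of the leaf. Cp4.1LG16g07160 gained 5065 FPKM, with 5676 FPKM under bulk CuO, 2546 FPKM under CuSO4, 481 FPKM under NPs and 611 FPKM in untreated leaf, a log2 difference of 3.21. Cp4.1LG01g13630 gained 4539 FPKM, with 8124 FPKM under bulk CuO, 5897 FPKM under CuSO4, 3456 FPKM under NPs and 3585 FPKM in untreated leaf. Its log2 difference of 1.18 is within the threshold, so a gene can add that much to the pool and not be counted. Cp4.1LG01g08450 differed by -5899 FPKM, with 750 FPKM under bulk CuO, 3848 FPKM under CuSO4, 8472 FPKM under NPs and 6648 FPKM in untreated leaf, a difference of -3.15. Cp4.1LG11g01450 differed by -5416 FPKM, with 774 FPKM under bulk CuO, 3656 FPKM under CuSO4, 7558 FPKM under NPs and 6190 FPKM in untreated leaf, a difference of -3.00. These 2 genes had like levels in each leaf library but not in root, where Cp4.1LG01g08450 stood at 4.88 FPKM and Cp4.1LG11g01450 at 161 FPKM under bulk CuO, against 17.8 and 434 FPKM in untreated root. Both were lower under bulk CuO in root as well, by a log2 difference of -1.68 for Cp4.1LG01g08450 and -1.42 for Cp4.1LG11g01450.

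**Figure D2:**
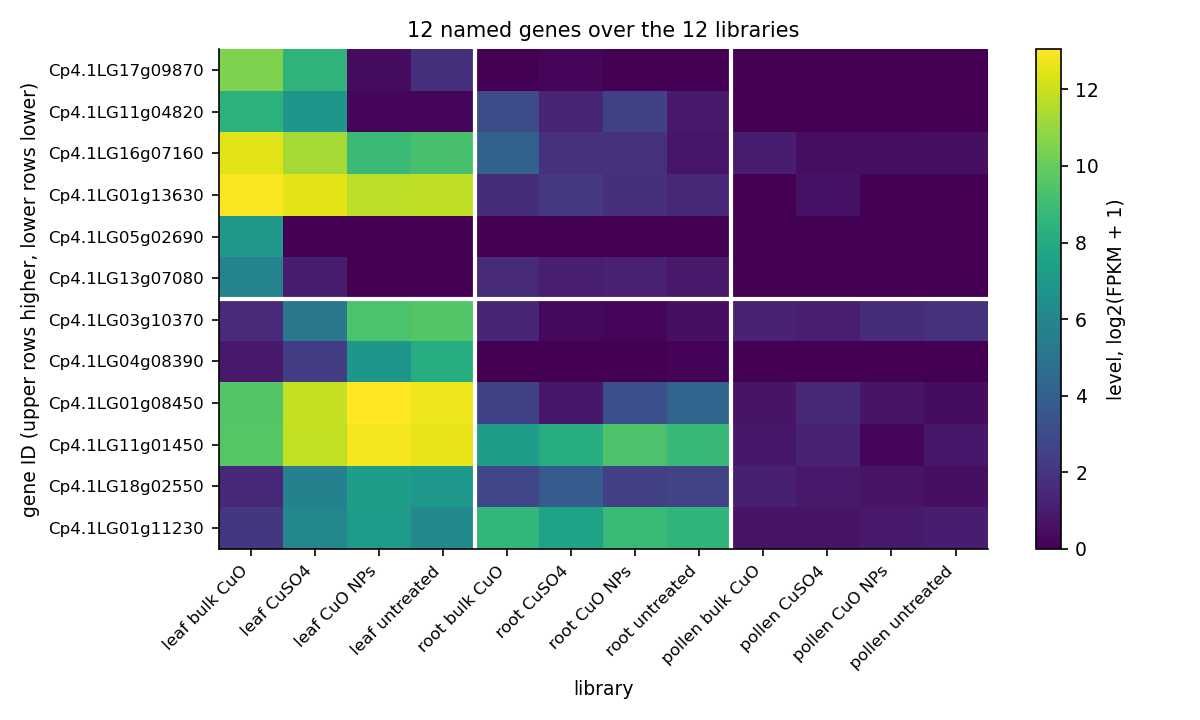
Levels of 12 named genes (rows) in the 12 libraries (columns), as log2(FPKM + 1) on the colour scale, with genes higher under bulk CuO in leaf in the upper rows and lower ones below. In most rows the bulk CuO and CuSO4 leaf levels are both above or both below those of NP and untreated leaf. In some of these rows, such as Cp4.1LG18g02550, CuSO4 leaf lies nearer to NP leaf than to bulk CuO leaf. Cp4.1LG05g02690 is above 0 in bulk CuO leaf alone.

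Some of the 1686 genes had a listed value of 0 on one side. Of all 20834 genes kept, 183 were listed at 0 in untreated leaf, 169 in NP leaf, 138 in CuSO4 leaf and 106 in bulk CuO leaf. Of the 951 higher genes, 111 (11.7%) were listed at 0 in untreated leaf, where their median under bulk CuO was 6.55 FPKM and the highest 128 FPKM. Of these, 52 were also listed at 0 in NP leaf, 9 in CuSO4 leaf, and 72 (64.9%) reached 1 FPKM in at least 1 root library, against 94.0% of all genes kept. Of the 735 lower genes, 57 (7.76%) were listed at 0 under bulk CuO, with a median of 7.36 FPKM in untreated leaf. Of these, 29 were also listed at 0 in CuSO4 leaf and 8 in NP leaf, and 39 (68.4%) reached 1 FPKM in at least 1 root library. A listed 0 can be a failed estimate. No ratio of FPKM is given against one, and a log2(FPKM + 1) difference against one depends on the value added.

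The CuSO4 and NP leaf libraries took no part in the comparison of bulk CuO with untreated leaf, so their difference is a separate reading of the same genes, although all 4 libraries entered the filter. Of the 951 genes higher under bulk CuO, 831 (87.4%) were higher under CuSO4 than under NPs by 1 or more, against 17.1% of all genes kept, and 375 (39.4%) by 2.3 or more, against 2.45%. Of the 735 lower genes, 646 (87.9%) were lower under CuSO4 than under NPs by 1 or more, against 12.7% of all genes, and 341 (46.4%) by 2.3 or more, against 2.52%. Only 6 higher genes and 7 lower genes went the opposite way by 1 or more. The median difference between CuSO4 and NP leaf was 2.06 for the higher genes, -2.20 for the lower genes and 0.09 for all genes kept. The shares also stood apart within level bins of NP leaf from 1 FPKM upward. At 1 to 5 FPKM, 87.9% of 364 higher genes were higher under CuSO4 by 1 or more, against 24.6% of all genes of that bin, and 79.8% of 84 lower genes were lower, against 7.05%. At 5 to 20 FPKM, 91.4% of 186 higher genes were higher under CuSO4 by 1 or more, against 11.8% of all genes of that bin. At 20 to 100 FPKM, 92.9% of 295 lower genes were lower by 1 or more, against 22.4% of all genes of that bin. At 100 FPKM or more, 95.0% of 159 lower genes were lower, against 43.4% of all genes there. Below 1 FPKM, 83.6% of 342 higher genes were higher, but so were 57.8% of all genes of that bin.

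**Figure D3:**
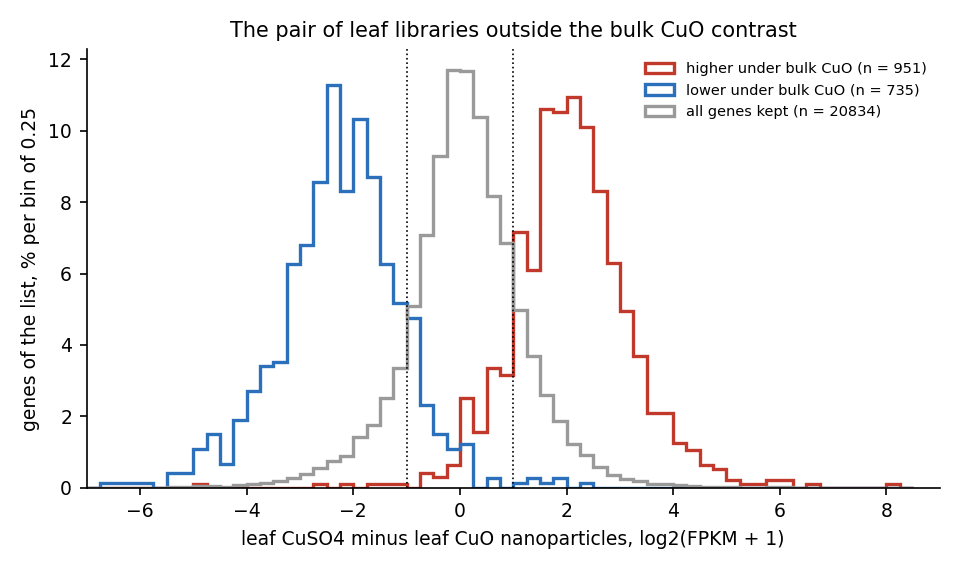
Distribution of the difference between CuSO4 and NP leaf on the log2(FPKM + 1) scale for the 951 genes higher under bulk CuO, the 735 genes lower under bulk CuO and all 20834 genes kept, as percent of each list per bin. Dotted lines mark 1 and -1, and the medians are 2.06, -2.20 and 0.09.

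In levels, the 951 higher genes had a median of 22.5 FPKM under bulk CuO, 12.0 FPKM under CuSO4, 1.86 FPKM under NPs and 1.50 FPKM in untreated leaf. The 735 lower genes had a median of 3.27 FPKM under bulk CuO, 5.07 FPKM under CuSO4, 29.8 FPKM under NPs and 38.4 FPKM in untreated leaf. Bulk CuO and CuSO4 leaf thus stood on one side and NP and untreated leaf on the other. Bulk CuO was the farther of the treated pair: it was above CuSO4 in 838 of the 951 higher genes (88.1%, against 58.2% of all genes kept) and below it in 502 of the 735 lower genes (68.3%, against 41.5%). The bulk CuO values chose these genes, which favours that order. Set against the same untreated library, the higher genes had a median of 2.82 under bulk CuO, 2.17 under CuSO4 and 0.06 under NPs. The lower genes had -2.91, -2.62 and -0.25 in the same order. These 3 comparisons share the untreated leaf library, whose own deviations enter all of them.

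**Figure D4:**
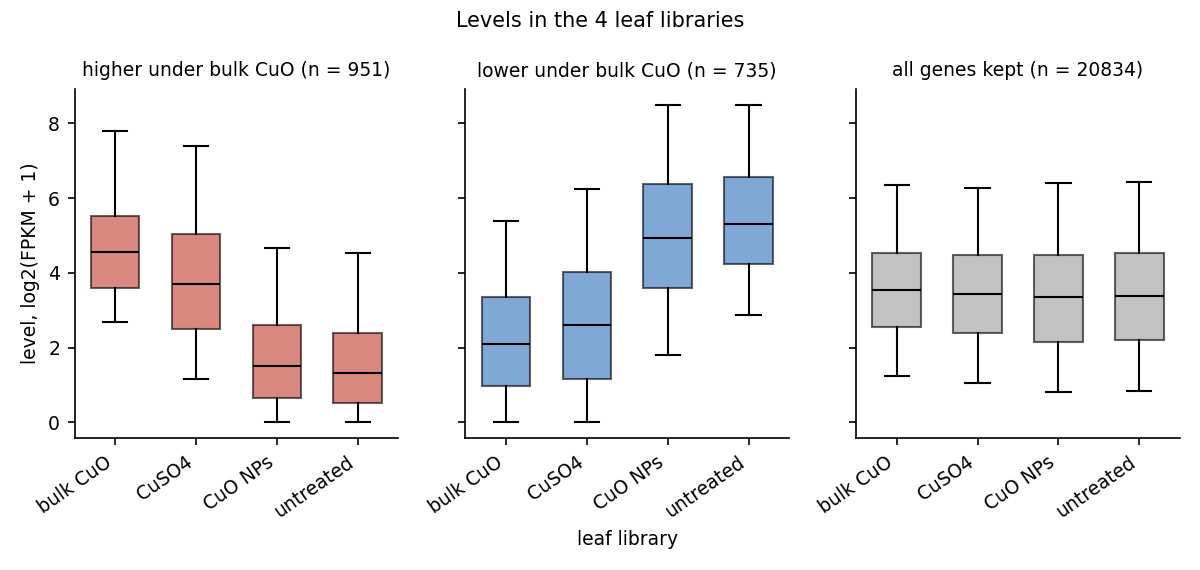
Levels as log2(FPKM + 1) in the 4 leaf libraries for the 951 genes higher under bulk CuO, the 735 genes lower under bulk CuO and all 20834 genes kept. Boxes are quartiles over genes with the median as a line, whiskers the 5th and 95th percentiles, and the medians of the first list are 22.5, 12.0, 1.86 and 1.50 FPKM from left to right.

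A small group stood apart by 2.3 or more in the bulk CuO library alone. At 1 or more the group was larger, with bulk CuO leaf above all 3 others in 753 genes (3.61% of those kept) and below them in 431 (2.07%). These included 353 of the 951 higher genes and 183 of the 735 lower genes. In 50 genes, 0.240% of those kept, bulk CuO leaf was above each of the other 3 leaf libraries by 2.3 or more, and in 30 genes (0.144%) it was below each of them. The 50 genes had a median of 23.6 FPKM under bulk CuO, 1.81 FPKM under CuSO4, 0.681 FPKM under NPs and 0.508 FPKM in untreated leaf, and 6 of them were listed at 0 in all 3 other leaf libraries. The 30 genes had a median of 1.89 FPKM under bulk CuO, 27.2 FPKM under CuSO4, 71.0 FPKM under NPs and 58.0 FPKM in untreated leaf. Cp4.1LG05g02690 stood at 128 FPKM under bulk CuO, while all 11 remaining libraries list it at 0, so its level rests on that library alone. Cp4.1LG13g07080 stood at 55.3 FPKM under bulk CuO, 1.07 FPKM under CuSO4, a listed 0 under NPs and 0.033 FPKM in untreated leaf, and at 0.874 to 1.97 FPKM in root. Cp4.1LG18g02550 stood at 1.69 FPKM under bulk CuO, 53.0 FPKM under CuSO4, 154.9 FPKM under NPs and 124.1 FPKM in untreated leaf. Cp4.1LG01g11230 stood at 3.36 FPKM under bulk CuO, 65.2 FPKM under CuSO4, 142.2 FPKM under NPs and 72.6 FPKM in untreated leaf. In root the same gene was abundant, at 394 FPKM under bulk CuO, 189 FPKM under CuSO4, 444 FPKM under NPs and 374 FPKM in untreated root.

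Genes that separate leaf from root were then taken from the NP libraries of these organs, which are outside the comparison. At 2.3 or more, 1606 of the genes kept were higher in leaf than in root and 977 were higher in root than in leaf. Both leaf libraries kept the leaf pattern. Of the 1606 genes, 1486 (92.5%) were higher in leaf than in root under bulk CuO and 1599 (99.6%) in untreated plants. The pattern was flatter under bulk CuO, with a median difference between leaf and root of 2.97 under bulk CuO and 3.46 in untreated plants, and 1002 and 1402 genes still at 2.3 or more. The bulk CuO root library enters this difference too. The classes were chosen as extremes of the NP libraries, and NP leaf lay close to untreated leaf, with quartiles of their difference at -0.18 and 0.16. That choice favours a smaller difference under bulk CuO, so the flatter pattern only describes these genes. Of the 977 root genes, 839 (85.9%) were higher in root than in leaf under bulk CuO and 970 (99.3%) in untreated plants.

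Both classes made up larger shares of both lists than of all genes, by most for the leaf class among the lower genes and the root class among the higher genes. Of the 735 lower genes, 271 (36.9%) were in the leaf class, against 7.71% of all genes kept. Of the 951 higher genes, 140 (14.7%) were in the root class, against 4.69% of all genes. The leaf class also held 84 (8.83%) of the higher genes and the root class 45 (6.12%) of the lower genes. Leaf class genes are abundant in leaf and root class genes weak, and abundance moved with the direction of the difference, so the classes were also set side by side within bins of NP leaf. At 100 FPKM or more, 28.3% of 407 leaf class genes were lower past the threshold, against 11.0% of 401 genes in neither class. At 20 to 100 FPKM the shares were 16.1% of 716 leaf class genes and 4.42% of 3956 genes in neither class. At 5 to 20 FPKM they were 8.22% of 450 and 1.64% of 7639, and at 1 to 5 FPKM 12.1% of 33 and 1.29% of 5040. A leaf class gene needs at least 3.92 FPKM in NP leaf, so at 1 to 5 FPKM the classes are not matched in level. On the higher side the leaf class also had the larger shares at these levels, with 3.93%, 2.51%, 10.4% and 9.09% from the highest of these bins to the lowest, against 0%, 0.607%, 1.58% and 6.11% in neither class. Root class genes had larger shares on the higher side below 1 FPKM, with 36.8% of 185 against 22.6% of 1215 in neither class, and at 1 to 5 FPKM, with 11.9% of 447 against 6.11% of 5040. At 5 to 20 FPKM the share was 7.14% of 252 root class genes, against 1.58%, and at 20 to 100 FPKM 1.16% of 86, against 0.607%. They had larger shares on the lower side as well, with 3.36% against 1.29% at 1 to 5 FPKM, 9.13% against 1.64% at 5 to 20 FPKM and 5.81% against 4.42% at 20 to 100 FPKM. Genes that separate the organs thus had larger shares than genes in neither class on both sides. This held for the leaf class from 5 FPKM upward and for the root class at 1 to 20 FPKM. Other bins rested on few genes, with 3 higher and 4 lower leaf class genes at 1 to 5 FPKM. At 20 to 100 FPKM the root class had 1 higher and 5 lower genes. Below 1 FPKM it had 2 lower genes (1.08%, against 0.823%). Both lists also held smaller shares of genes measured in other organs than all genes did. In NP pollen, 221 of the 951 higher genes (23.2%) and 242 of the 735 lower genes (32.9%) reached 1 FPKM, against 45.8% of all genes kept. In NP root, 701 (73.7%) and 622 (84.6%) did, against 91.4%. In a bulk organ sample, fewer cells of a type and less RNA per cell cannot be told apart.

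**Figure D5:**
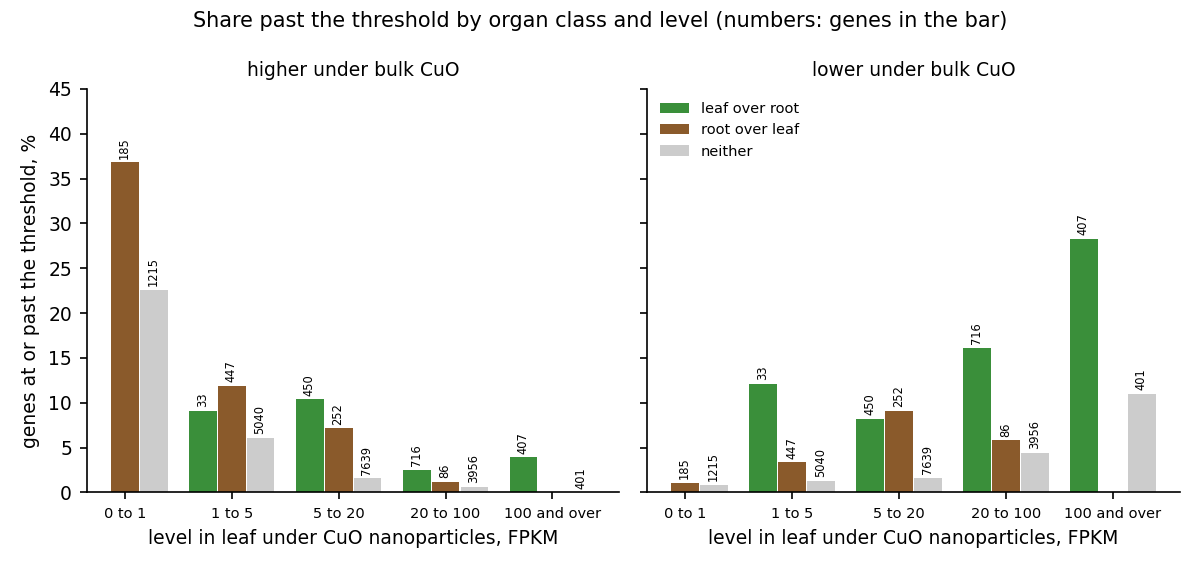
Percent of genes at or past 2.3 in bulk CuO against untreated leaf on the higher side (left) and the lower side (right), by level in NP leaf and by class. Classes are leaf over root, root over leaf (each 2.3 or more between the NP libraries) and neither, and the number over a bar is its genes. Bars of under 20 genes are left out. No leaf class gene is possible below 3.92 FPKM in NP leaf, so the lowest bin has none. At 100 FPKM or more the lower side holds 28.3% of the leaf class, against 11.0% of genes in neither class.

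The genes that differed in leaf were followed under bulk CuO in root and pollen, where no library is shared with the leaf pair. In root, 690 of the 951 higher genes passed the root filter of a mean of 1 FPKM, and 56 (8.12%) were higher in bulk CuO root by 1 or more, against 5.80% of the 19054 genes kept in both organs. Of the same 690, 32 (4.64%) were lower by 1 or more, against 5.31%. At 2.3 or more 6 (0.870%) were higher, against 0.677%, so these shares lay close to those of all genes. Of the 628 lower genes kept in root, 145 (23.1%) were lower by 1 or more, against 5.31%, and 93 (14.8%) were higher by 1 or more, against 5.80%. At 2.3 or more, 17 (2.71%) were lower, against 0.289%, and 15 (2.39%) higher, against 0.677%. The genes lower in leaf thus had larger shares in root than all genes on both sides, and most lay within 1 of untreated root. In pollen, 231 higher and 272 lower genes passed the filter. Of the 231, 33 (14.3%) were higher under bulk CuO by 1 or more, against 7.44% of 9776 genes, and 4 (1.73%) were lower, against 0.829%. The first share was 4.55% with 5 added before the log, against 2.29% of all genes. Of the 272, 52 (19.1%) were higher by 1 or more, against the same 7.44%, and 8 (2.94%) were lower, against 0.829%. At 2.3 or more, 19 of the 272 (6.99%) were higher in pollen, against 1.40%, and 3 (1.10%) lower, against 0.0921%. Of the 20834 genes kept in leaf, untreated pollen listed 6082 at 0 and bulk CuO pollen 4611. How far these zeros favour differences upward in pollen was not tested.

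The genes that led where leaf and root differed the same way were mostly listed at 0 in some libraries. Cp4.1LG16g07160, described above for leaf, stood at 15.5 FPKM under bulk CuO, 2.65 FPKM under CuSO4, 2.61 FPKM under NPs and 0.735 FPKM in untreated root, a log2 difference of 3.25 that is close to the 3.21 of leaf at a far lower level. Cp4.1LG00g07630 was measured in bulk CuO leaf (6.56 FPKM), NP leaf (5.66 FPKM), bulk CuO root (5.40 FPKM) and CuSO4 root (5.59 FPKM), and listed at 0 in the other 4 leaf and root libraries. Cp4.1LG00g09790 was measured in untreated plants only, at 83.3 FPKM in leaf and 20.4 FPKM in root, and listed at 0 in all other libraries. Cp4.1LG00g12330 had the same arrangement, at 62.2 FPKM in untreated leaf and 12.3 FPKM in untreated root. For both genes the difference rests on the untreated libraries alone and is the same for every copper material.

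The genes past the threshold were spread over all 21 prefixes of the gene IDs, LG00 to LG20. LG stands for linkage group, and LG00 was left out when runs were named. The share of genes on the higher side ran from 3.53% for LG08 to 6.85% for LG15, and on the lower side from 1.95% for LG07 to 5.06% for LG15. Genes next to each other in the list of IDs showed little grouping. Of 733 higher genes whose next ID was kept, 45 (6.14%) had a next ID that was also higher past the threshold, against 4.56% of all genes kept. Of 543 such lower genes, 23 (4.24%) had a next ID that was also lower, against 3.53%. The longest run on the higher side had 3 genes, and the first of these with that length began at Cp4.1LG13g02110, with 50.8 FPKM under bulk CuO, 43.3 FPKM under CuSO4, 2.29 FPKM under NPs and 2.14 FPKM in untreated leaf. On the lower side no run was longer than 2, and outside LG00 the first began at Cp4.1LG01g00790, with 4.33 FPKM under bulk CuO, 8.87 FPKM under CuSO4, 24.6 FPKM under NPs and 27.6 FPKM in untreated leaf. Genes with values identical to those of another ID in all 12 libraries, whose reads may not have been told apart, made up 8 of the higher genes (0.841%) and 14 of the lower genes (1.90%), against 163 of all genes kept (0.782%).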

How the data were processed

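Expression values in the deposited table are FPKM, normalized by the authors. Per the series design text, reads of 75 bp were aligned with STAR to a reference transcriptome of a cucurbit database. Cutadapt and StringTie appear too in the submitters' processing notes. Tool versions, the build and any pooling of RNA: not given in the sources used here. From these values log2(FPKM + 1) was computed, which understates the change of low genes. The filter was a leaf mean of 1 FPKM or more, a mean of exactly 1 included. There are no counts, so no count model was used, and with 1 library per group no test was made. Relative depth came from pairs of values between 0.05 and 1.5 FPKM, whose quotients cluster at those of small whole numbers, up to 4 (tolerance 0.01, steps of 0.005 in log2). Estimates closed within 0.005 over triples of leaf libraries. Since read totals are not known, no counting error could be given for the values.

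Named genes were the first 2 per direction among genes that reached 5 FPKM in either library. They were ranked by log2 difference, by FPKM difference, by distance of bulk CuO from all 3 other leaf libraries, and by the smaller difference in leaf and root, plus the first gene of the longest ID run. Planned lists of functions and organ markers could not be applied without names. The comparison and lists were chosen with earlier results of these data known. The counting steps were tested on simulated data. Work was done in Python 3.11.15 (numpy 2.4.6, pandas 2.3.3), with figures from matplotlib 3.10.9. An exact binomial interval (scipy 1.17.1) served only to decide which shares had moved under an alternative. The alternatives were other pseudocounts, filters, scalings, treatments of zeros, duplicates and LG00, and NP leaf in place of untreated leaf.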

Additional observations from a re-analysis of the deposited data

Results flagged for a closer look

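Some genes differed in opposite directions between leaf and another organ under bulk CuO. With 1 library per group the difference between organs was not tested. Of the 690 higher genes kept in root, 1 (0.145%) was lower there by 2.3 or more, against 0.289% of all genes, and of the 628 lower genes, 15 (2.39%) were higher there, against 0.677%. Of the 231 higher genes kept in pollen, 1 (0.433%) was lower there by 2.3 or more, against 0.0921% of all genes, and of the 272 lower genes, 19 (6.99%) were higher there, against 1.40%. Untreated pollen had more listed zeros than bulk CuO pollen, as given above. Cp4.1LG16g00750 stood at 7.44 FPKM under bulk CuO in leaf and was listed at 0 in untreated leaf, while in root it stood at 0.177 FPKM under bulk CuO and 7.78 FPKM in untreated root, a log2 difference in root of -2.90. Under CuSO4 and NPs it stood at 4.37 and 5.27 FPKM in leaf and at 8.04 and 6.99 FPKM in root, so in leaf the untreated library and in root the bulk CuO library stands alone. Cp4.1LG00g04280 and Cp4.1LG11g09880 were both listed at 0 under bulk CuO and at 22.2 FPKM in untreated leaf, and at 23.0 FPKM under bulk CuO and 0 in untreated root. Their log2(FPKM + 1) difference in root, 4.58, is set against a listed 0 and depends on the value added. Both are also listed at 0 in CuSO4 and NP leaf, and in root stood at 28.7 FPKM under CuSO4 and at 30.7 FPKM (Cp4.1LG00g04280) and 30.6 FPKM (Cp4.1LG11g09880) under NPs. Their pattern thus rests on the untreated libraries and is shared by every copper material. Their values were equal to each other in every library but NP root.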

How the results depend on the processing

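With 0.1 added before the log in place of 1, 1665 genes were higher and 1032 lower (61.7% higher), and with 5 added, 271 and 339 (44.4%), since the added value decides how far low genes can differ. The share of higher genes was 52.4% with a mean of at least 5 FPKM, 47.0% after a median shift, 47.5% after quantile normalization (755 higher, 836 lower) and 60.5% with NP leaf in place of untreated leaf (905 higher, 591 lower). The cause was not tested. Both counts stayed within 1.5 times under the other filters, without genes listed at 0 (840 higher, 678 lower), with identical genes counted once and without LG00. For the results that follow, the shares of all genes moved with the setting too and are given after "against". Between CuSO4 and NP leaf, the share of higher genes at 1 or more was 91.1% with 5 added (against 7.96%). It was 93.2% with a mean of at least 5 FPKM (against 15.9%) and 90.7% without listed zeros (against 16.7%). The share of lower genes at -1 or less was 92.3% with 5 added (against 7.64%). In root, higher genes at 1 or more made up 13.4% with 0.1 added (against 7.54%), 4.84% with 5 added (against 3.33%) and 10.7% after a median shift (against 6.43%). Lower genes at -1 or less made up 17.5% with 5 added (against 2.16%) and 19.2% after the shift (against 4.77%), and lower genes at 1 or more 8.75% with 5 added (against 3.33%). In pollen, 5 added gave 4.55% of higher genes and 14.3% of lower genes at 1 or more (against 2.29%), and 0.1 added 7.58% of lower genes at -1 or less (against 2.30%). Leaf class genes made up 44.2% of lower genes with 5 added (against 4.17%) and 41.8% with a mean of at least 5 FPKM (against 10.1%). Root class genes made up 29.4% of higher genes with 0.1 added (against 7.57%), 7.01% with 5 added (against 2.32%) and 11.9% after the shift (against 3.69%). A next ID in the same list was found for 9.49% of higher genes with 0.1 added (against 7.99%), 2.82% with 5 added (against 1.30%), and 2.39% of lower genes with 5 added (against 1.63%). Of 80 values of the 20 named genes, 77 kept their side of 2.3, and 3, all with 5 added, came within it. No paired analysis was possible because each group has 1 library. Depth is unknown in absolute terms, so the error of single low values cannot be given.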
